A study of Mus musculus with 12 samples.

Results

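Early B lymphoid genes are described here by 9 members, Ebf1, Pax5, Igll1, Cd79a, Cd79b, Rag1, Rag2, Dntt and Il7r, out of 19938 genes with a probe set of their own. Members were picked by symbol, as the probe sets annotated to exactly 1 of these names, with the brightest kept per gene. All 9 had such a probe set, and each had only 1.

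Expression was measured on Affymetrix arrays in mouse marrow cells (strain given as C57/BL6/C3H) carrying 1 of 4 retroviral constructs, with 3 biological replicates of each and 12 arrays in all. The constructs were CALM(400-648)+AF10 (677-758), here called the minimal fusion, the leukaemia fusion CALM-AF10, the same fusion without its OM-LZ part (CALM-AF10 ΔOM-LZ, here ΔOM-LZ), and MIG, the empty vector that serves as the baseline. OM-LZ, the octapeptide motif and leucine zipper of AF10, binds the histone methyltransferase DOT1L. Cells of every group, MIG included, came from adult mice given 5-fluorouracil, were stimulated for 48 h, overlaid on irradiated (40 Gy) virus-producing GFP+E86 cells with cytokines and protamine sulfate, cultured for a further 48 h and sorted for GFP, with RNA taken 96 h after transduction. The cytokines are not named in the sources used here, and each array reads a bulk population of sorted cells whose composition was not measured. In such samples fewer cells of a type and less RNA per cell cannot be told apart.

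B cells arise from lymphoid-primed progenitors in the marrow. The transcription factors Ebf1 and Pax5 install and lock the B fate, the interleukin-7 receptor carries the growth signal of mouse B precursors, and the recombinase made of Rag1 and Rag2 cuts immunoglobulin genes, with Dntt adding bases at the joints. Igll1 (lambda5) is part of the surrogate light chain of the pre-B receptor, and Cd79a and Cd79b are its signalling chains. Mouse leukaemias driven by CALM-AF10 are known to be kept up by cells with B-lineage surface marking and rearranged immunoglobulin genes.

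In these arrays 8 of the 9 members lay close together across the constructs, and 0 of the 9 passed the test (limma, adjusted p under 0.05) in any comparison, where 0 to 0.0342% of all probe sets did. At an unadjusted p under 0.05 there were Cd79b, in 2 comparisons, and Il7r, in 1. Outside Il7r the largest difference between any pair of constructs was 0.47 on the log2 scale (1.39-fold, Cd79b), and outside Il7r and Cd79b it was 0.20. Il7r differed by up to 1.74 between constructs and differed as widely among replicates of one construct. By RefSeq's GRCm38.p6 annotation, Rag1 (chr2:101638252-101649532) and Rag2 (chr2:101624712-101632528) are neighbours, Ebf1 and Cd79b lie apart on chromosome 11, and Pax5, Cd79a, Il7r, Igll1 and Dntt lie on chromosomes 4, 7, 15, 16 and 19.

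Promoter windows show the sequence before 3 of the members. RefSeq's table (GRCm38.p6, 250 bases before to 50 after a start of the gene) held windows for 8 of the 9 members (all except Cd79b), and 3 are printed, each 5′ to 3′ on the gene's strand. The start used for Il7r lies inside the gene's annotated span (chr15:9506159-9529941), not at its outer end. Igll1 and Cd79a are textbook targets of Ebf1 and of the E-box binding E2A proteins, and Il7r is the member with the widest spread. Capitals mark the EBF core CCCNNGGG and E boxes CANNTG on either strand.
Igll1, chr16:16863936-16864235, minus strand: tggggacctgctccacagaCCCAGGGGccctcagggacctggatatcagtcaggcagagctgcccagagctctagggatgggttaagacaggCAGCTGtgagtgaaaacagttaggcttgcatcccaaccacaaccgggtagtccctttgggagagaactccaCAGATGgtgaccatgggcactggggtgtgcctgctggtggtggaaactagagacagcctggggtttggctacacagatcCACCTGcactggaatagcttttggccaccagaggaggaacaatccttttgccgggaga
Cd79a, chr7:24897247-24897546, plus strand: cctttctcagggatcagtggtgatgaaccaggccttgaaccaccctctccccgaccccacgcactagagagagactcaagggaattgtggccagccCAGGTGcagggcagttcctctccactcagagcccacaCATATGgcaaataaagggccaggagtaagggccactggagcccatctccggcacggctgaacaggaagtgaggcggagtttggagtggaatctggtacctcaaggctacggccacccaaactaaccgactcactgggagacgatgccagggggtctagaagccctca
Il7r, chr15:9529827-9530126, minus strand: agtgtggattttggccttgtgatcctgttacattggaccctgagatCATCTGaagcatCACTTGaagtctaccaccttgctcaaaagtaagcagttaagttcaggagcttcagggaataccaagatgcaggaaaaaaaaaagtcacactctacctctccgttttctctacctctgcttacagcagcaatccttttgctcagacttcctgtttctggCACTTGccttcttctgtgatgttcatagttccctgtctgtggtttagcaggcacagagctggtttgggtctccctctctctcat

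The EBF core was found in 1 of the 9 member windows (Ebf1 has 2 windows), that of Igll1, and in 13.7% of 32851 windows of the same length. E boxes were in 8 of the 9, with 3 in Igll1, 2 in Cd79a and 3 in Il7r, and in 72.3% of all windows. The ETS core GGAA, which PU.1 can bind, was in 9 of 9 and in 96% of all windows, and the Ikaros core TGGGAA, which contains it, in 2 of 9 and 25.6%. The octamer ATTTGCAT and the TATA box TATAAA were in 0 of the 9, against 1.74% and 13.6% of all windows. These are exact matches of letters in a short window, both strands searched, and say nothing on binding. A near match, such as ctcaaggg in the Cd79a window, 1 base off the EBF core, was not counted. A window without a match can therefore still hold a site.

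**Figure D1:**
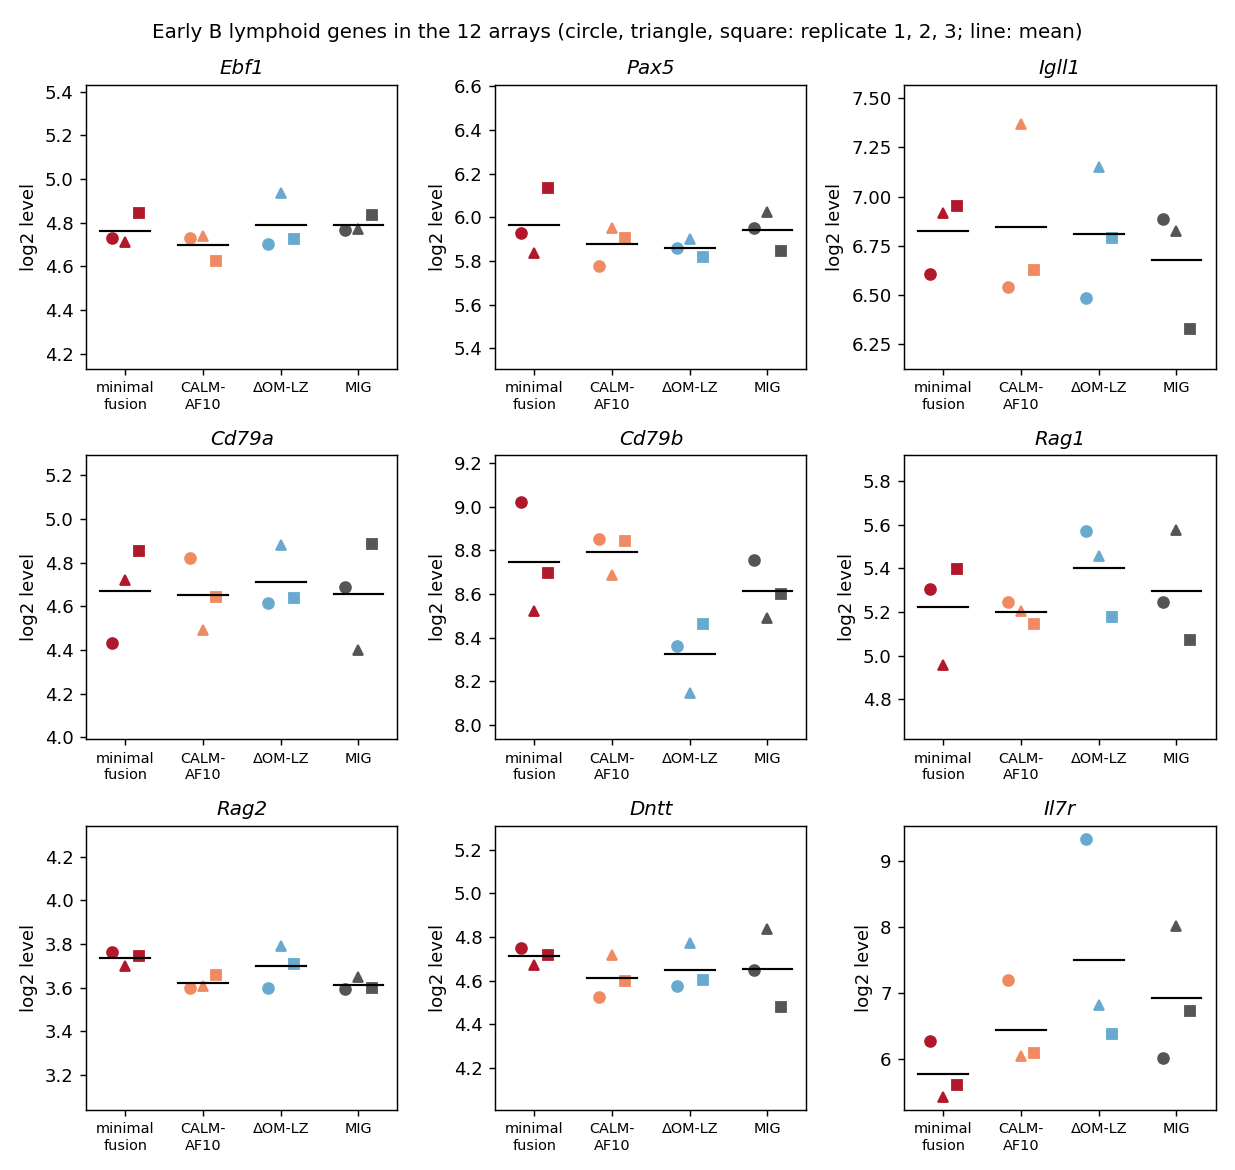
Log2 level (y axis) of each of the 9 genes in the minimal fusion, CALM-AF10, ΔOM-LZ and MIG arrays (x axis), 1 point per array with the replicate number as its shape and the mean of 3 as a line. The Il7r points run from 5.44 to 9.33, while in each other gene the 12 arrays lie within a range of 1.04 or less.

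Among the transcription factors, Ebf1, the factor that starts the B programme, stood at log2 levels of 4.73, 4.71 and 4.85 in minimal fusion arrays, 4.73, 4.74 and 4.62 in CALM-AF10 arrays, 4.70, 4.94 and 4.73 in ΔOM-LZ arrays and 4.77, 4.77 and 4.83 in MIG arrays. The 3 CALM-AF10 arrays lay below all MIG arrays, and the other fusions overlapped MIG. That gap was small: the difference of CALM-AF10 from MIG was −0.09 (SE 0.09, 95% interval −0.29 to 0.11). Pax5, the factor that keeps B cells committed, averaged 5.97 ± 0.15 in minimal fusion arrays, 5.88 ± 0.09 in CALM-AF10, 5.86 ± 0.04 in ΔOM-LZ and 5.94 ± 0.09 in MIG arrays (SD, n = 3 each). All its groups overlapped, with differences from −0.08 to 0.11 over the 6 pairs of constructs.

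Of the pre-B receptor genes, Igll1 stood at 6.61, 6.92 and 6.95 in minimal fusion arrays, 6.54, 7.37 and 6.62 in CALM-AF10, 6.48, 7.15 and 6.79 in ΔOM-LZ and 6.89, 6.82 and 6.32 in MIG arrays. The groups overlapped throughout, and replicate 2 was the highest array in CALM-AF10 and ΔOM-LZ. Constructs accounted for 5.4% of the variance of Igll1 over the arrays and replicate numbers for 48.4%. The share of replicate numbers was not tested. Over all probe sets these numbers paired the arrays in 1 comparison alone, CALM-AF10 against ΔOM-LZ. Cd79a, a signalling chain of the B receptor, averaged 4.67 ± 0.22 in minimal fusion arrays, 4.65 ± 0.16 in CALM-AF10, 4.71 ± 0.15 in ΔOM-LZ and 4.66 ± 0.24 in MIG arrays (SD, n = 3 each). Its group means differed by at most 0.06, within the spread of each group, and constructs accounted for 2.1% of its variance.

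Cd79b, the partner chain of Cd79a, was the member with the most orderly pattern. It stood at 9.02, 8.52 and 8.70 in minimal fusion arrays, 8.85, 8.69 and 8.84 in CALM-AF10, 8.36, 8.15 and 8.46 in ΔOM-LZ and 8.76, 8.49 and 8.60 in MIG arrays. Each ΔOM-LZ array lay below every array of the other 3 constructs, while minimal fusion, CALM-AF10 and MIG arrays overlapped each other. CALM-AF10 exceeded ΔOM-LZ by 0.47 (1.39-fold, SE 0.14, interval 0.17 to 0.77) and the minimal fusion exceeded ΔOM-LZ by 0.42 (1.34-fold, SE 0.14, interval 0.12 to 0.73). Neither passed in limma after Benjamini-Hochberg adjustment (unadjusted p = 0.00581 and 0.0106, adjusted p = 1 and 0.999). ΔOM-LZ stood 0.29 below MIG (log2 fold change −0.29, SE 0.14, adjusted p = 0.999). Both fusions with OM-LZ were set against the same ΔOM-LZ arrays, so these differences share samples.

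Over the 12 arrays Cd79a and Cd79b correlated at r = −0.26. The 36 pairs of members had a median r of 0.07 and ran from −0.49 to 0.70. Of these, 19 were above 0, and the highest were Rag1 with Il7r (0.70), Igll1 with Dntt (0.65) and Pax5 with Dntt (0.64). These values describe 12 arrays that share constructs and replicate numbers. For Rag1 with Il7r the Spearman value was 0.57. Replicate 1 of ΔOM-LZ and replicate 2 of MIG were the highest arrays of Il7r (9.33 and 8.02) and of Rag1 (5.57 and 5.58). How far that correlation rests on these arrays was not tested.

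Rag2 stood at 3.77, 3.70 and 3.74 in minimal fusion arrays, 3.60, 3.61 and 3.66 in CALM-AF10, 3.60, 3.79 and 3.71 in ΔOM-LZ and 3.59, 3.65 and 3.60 in MIG arrays. The minimal fusion arrays lay above all CALM-AF10 and MIG arrays and overlapped ΔOM-LZ. The size of that gap was 0.12 against MIG (1.09-fold, SE 0.08, interval −0.05 to 0.30, adjusted p = 0.763 in limma) and 0.12 against CALM-AF10 (adjusted p = 1). Rag2 also had the smallest spread of the members, with an SD of 0.07 over the 12 arrays, below that of all but 2.5% of probe sets.

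Rag1, the catalytic subunit of the recombinase, stood at 5.30, 4.96 and 5.40 in minimal fusion arrays, 5.25, 5.21 and 5.14 in CALM-AF10, 5.57, 5.46 and 5.18 in ΔOM-LZ and 5.25, 5.58 and 5.07 in MIG arrays. All groups overlapped, and the differences ran from −0.20 to 0.10. Dntt, the terminal transferase, averaged 4.71 ± 0.04 in minimal fusion arrays, 4.61 ± 0.10 in CALM-AF10, 4.65 ± 0.11 in ΔOM-LZ and 4.65 ± 0.18 in MIG arrays (SD, n = 3 each). Its groups overlapped, and its differences stayed between −0.04 and 0.10.

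Il7r, the alpha chain shared by the receptors for interleukin-7 and TSLP, stood at 6.27, 5.44 and 5.61 in minimal fusion arrays, 7.20, 6.05 and 6.09 in CALM-AF10, 9.33, 6.82 and 6.38 in ΔOM-LZ and 6.02, 8.02 and 6.73 in MIG arrays. Replicate 1 of ΔOM-LZ was the highest array and replicate 2 of MIG the next, each far above the other arrays of its own construct. Within each fusion replicate 1 was the highest array, while in MIG it was the lowest. Minimal fusion arrays lay below all ΔOM-LZ arrays and overlapped CALM-AF10 and MIG. The SD of Il7r over the 12 arrays was 1.10, larger than that of 99.5% of probe sets, and within constructs it was still 1.02, larger than that of 99.1%.

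Set against that spread, the minimal fusion stood 1.74 below ΔOM-LZ in Il7r (log2 fold change −1.74, 0.3 of the ΔOM-LZ level, SE 0.72, interval −3.33 to −0.15) and did not pass in limma (unadjusted p = 0.0351, adjusted p = 0.999). Without replicate 1 of ΔOM-LZ the difference was −0.82. It stood 1.15 below MIG (log2 fold change −1.15, SE 0.72, interval −2.74 to 0.44, adjusted p = 0.76), and −0.60 without replicate 2 of MIG. ΔOM-LZ stood 0.59 above MIG (SE 0.72), and −0.32 without replicate 1 of ΔOM-LZ, so the direction there rested on that array.

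**Figure D2:**
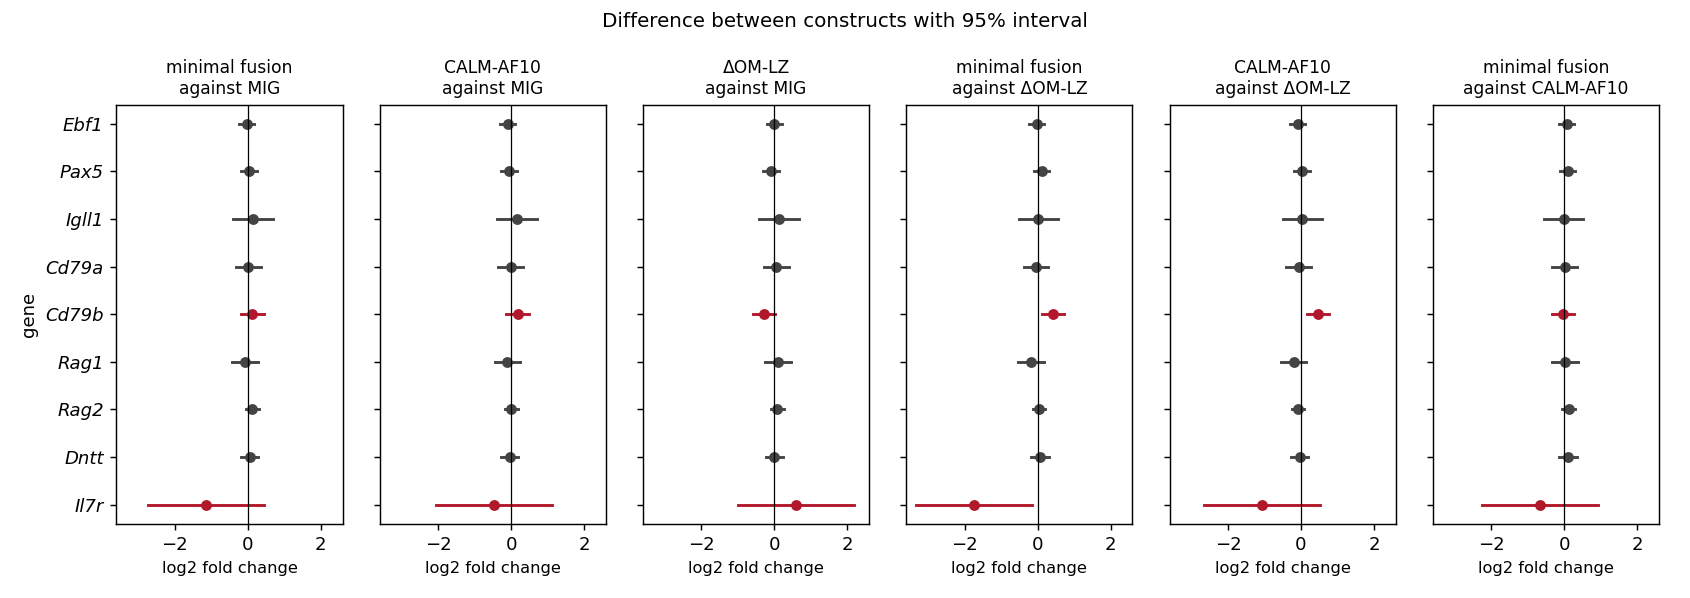
Log2 fold change (x axis) of each gene (y axis) for the 6 pairs of constructs, as points with 95% intervals from limma; Cd79b and Il7r are in red. Of 54 intervals 51 include 0, the exceptions being Cd79b in each OM-LZ fusion against ΔOM-LZ and Il7r in the minimal fusion against ΔOM-LZ, and none passed after adjustment.

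Counted over the members, the minimal fusion against MIG had 0 of 9 past an adjusted p of 0.05 in limma, where 0.0342% of all 23410 probe sets passed. At an unadjusted p under 0.05 there were 0 of 9 (7.61% of all probe sets), and the groups did not overlap for 1, Rag2, which was higher (12.1% of all, 6.08% higher and 6% lower). CALM-AF10 against MIG also had 0 past the adjusted threshold (0% of all), 0 unadjusted (5.26%) and 1 that did not overlap, Ebf1, which was lower (9.31%, 6.04% higher and 3.26% lower). ΔOM-LZ against MIG had 0 (0%), 0 unadjusted (3.96%) and 1 that did not overlap, Cd79b, which was lower (8.04%, 3.57% higher and 4.47% lower). These counts of 0 or 1 in 9 are near the background shares.

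Between fusions, the minimal fusion against ΔOM-LZ had 0 members past the adjusted threshold (0.0171% of all probe sets), 2 at an unadjusted p under 0.05, Cd79b higher and Il7r lower (4.1% of all), and the same genes as the 2 that did not overlap (7.78%, 3.7% higher and 4.09% lower). CALM-AF10 against ΔOM-LZ had 0 (0% of all), 1 unadjusted (Cd79b, 2.26%) and 1 that did not overlap (Cd79b, higher, 6.76%, with 4.66% higher and 2.09% lower). The minimal fusion against CALM-AF10 had 0 (0.00427% of all), 0 unadjusted (1.8%) and 1 that did not overlap (Rag2, higher, 5.38%, with 2.06% higher and 3.32% lower). In the F test of any difference among the 4 constructs 0 members passed (0.00854% of all), and Cd79b alone had an unadjusted p under 0.05 (0.0237, against 4.3% of all probe sets).

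The median member moved little in every comparison. It was 0.03 for the minimal fusion against MIG, −0.04 for CALM-AF10 against MIG, 0.06 for ΔOM-LZ against MIG, 0.02 for the minimal fusion against ΔOM-LZ, −0.06 for CALM-AF10 against ΔOM-LZ and 0.02 for the minimal fusion against CALM-AF10, where the medians of all probe sets lay between −0.01 and 0.01. Of the 9 members 6 stood higher with the minimal fusion set against MIG (51.2% of all probe sets), 3 with CALM-AF10 against MIG (51%) and 5 with ΔOM-LZ against MIG (52.3%). Between fusions the number was 5 for the minimal fusion against ΔOM-LZ (50.2%), 3 for CALM-AF10 against ΔOM-LZ (51.2%) and 6 for the minimal fusion against CALM-AF10 (47.7%), none past the test.

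The width of the intervals varied by gene. The farthest bound of any 95% interval was 0.29 for Ebf1 (1.22-fold), 0.30 for Rag2 (1.23-fold), 0.32 for Pax5 (1.25-fold), 0.34 for Dntt (1.26-fold) and 0.40 for Cd79a (1.32-fold). It was 0.55 for Rag1 (1.46-fold), 0.71 for Igll1 (1.63-fold), 0.77 for Cd79b (1.71-fold) and 3.33 for Il7r (10-fold). These bounds are on the array's log2 scale. Of the mean levels, that of Rag2 lay above 0.8% of probe sets, Dntt above 11.6%, Cd79a above 11.9% and Ebf1 above 13.3%. Rag1 lay above 22.5%, Pax5 above 33.7%, Il7r above 45.7% and Igll1 above 47.3%. Whether the probe set of any member was above background was not tested. A narrow interval thus sets no limit on a difference in transcript level.

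**Figure D3:**
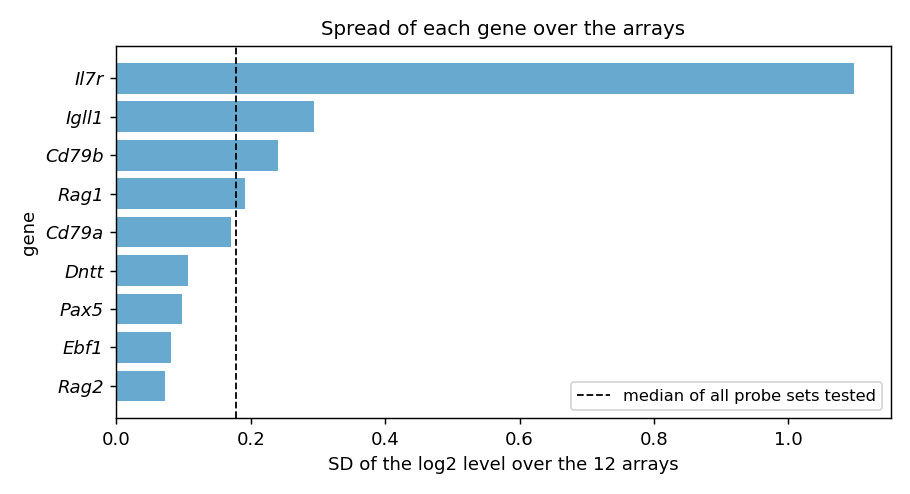
SD of the log2 level over the 12 arrays (x axis, bars from 0) for each of the 9 genes (y axis), with a dashed line at the median of all 23410 probe sets tested (0.178). Ebf1, Pax5, Dntt and Rag2 have SDs of 0.072 to 0.106, and Il7r 1.10.

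A filter on dim probe sets gives a further description of the members. With the cut at the median probe set (mean log2 level 7.02) 1 of the 9 passed, Cd79b. Of the B lineage lists, 7 of 14 measured pre-B and B receptor genes passed, 12 of 19 commitment factors, 8 of 8 interleukin-7 signalling genes and 9 of 11 repair genes. Of the marker lists, 2 of 9 mature B or plasma cell genes passed, 1 of 10 T cell, 1 of 6 NK cell, 6 of 7 lymphoid-primed, 3 of 6 plasmacytoid dendritic, 7 of 8 neutrophil, 6 of 6 monocyte, 6 of 6 mast cell, 5 of 5 megakaryocyte, 1 of 3 erythroid and 3 of 6 fibroblast genes, and 7 of 7 genes common to blood cells. Probe sets differ in brightness for the same amount of RNA, so these counts do not order genes or cell types. No detection call came with the values, so whether a member below the cut was expressed was not tested.

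Arrays high in Il7r were also high in the mean level of several of 16 gene lists, named for the B lineage or for other lineages. The genes of a list did not range alike. Cd74 in the mature B and plasma cell list ran from 7.33 to 10.78. Bst1 in the pre-B and B receptor list ran from 5.99 to 10.01, and Ms4a1, in both lists, from 4.44 to 5.07. The B commitment list also counts Id2, which blocks E2A proteins and ran from 9.58 to 12.38. A higher mean of that list is therefore not in itself a rise of factors that promote the B fate. The part of single genes in these correlations was not tested. Over the 12 arrays the pre-B receptor, B receptor and B surface list correlated with Il7r at r = 0.74 (Spearman 0.78), interleukin-7 signalling genes at 0.63, B commitment factors at 0.59 and V(D)J repair genes at −0.44. Among the marker lists, the mean log2 level of the megakaryocyte list (5 of 6 genes measured) correlated with Il7r at r = 0.82 (Spearman 0.83), the mature B and plasma cell list at 0.83 (0.61), the mast cell list at 0.72 (0.85), the monocyte and macrophage list at 0.71 (0.54) and the erythroid list (3 of 6 measured) at 0.71 (0.81). The T cell list stood at 0.17, NK and innate lymphoid genes at −0.03 and lymphoid-primed progenitor genes at 0.00. Plasmacytoid dendritic cell genes gave −0.29, neutrophil genes −0.27, producer-line fibroblast genes 0.16 and genes of any blood cell 0.35. Without replicate 1 of ΔOM-LZ the fibroblast list stood at 0.66, neutrophil genes at −0.01 and NK and innate lymphoid genes at 0.16. The erythroid list then stood at 0.48 and interleukin-7 signalling genes at 0.42. The size of these values thus shifted with that array.

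The 2 arrays farthest from the Il7r median, replicate 1 of ΔOM-LZ and replicate 2 of MIG, were then left out. Without them r was 0.72 for the megakaryocyte list, 0.80 for mast cells and 0.72 for the erythroid list. For the B commitment list, Id2 included, it was 0.59 and for interleukin-7 signalling genes 0.58. It was 0.41 for pre-B and B receptor genes, 0.32 for mature B and plasma cells and 0.16 for monocytes. Those last 3 relations rest on these arrays. The mean level of the megakaryocyte list ran from 7.98 to 8.61 in minimal fusion arrays, 8.17 to 9.08 in CALM-AF10, 8.40 to 10.26 in ΔOM-LZ and 8.77 to 10.33 in MIG arrays. That of the mast cell list ran from 10.23 to 10.87, 10.50 to 11.47, 11.07 to 12.05 and 10.85 to 12.22 in the same order of constructs. The part of these cell types in the Il7r values was not tested.

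**Figure D4:**
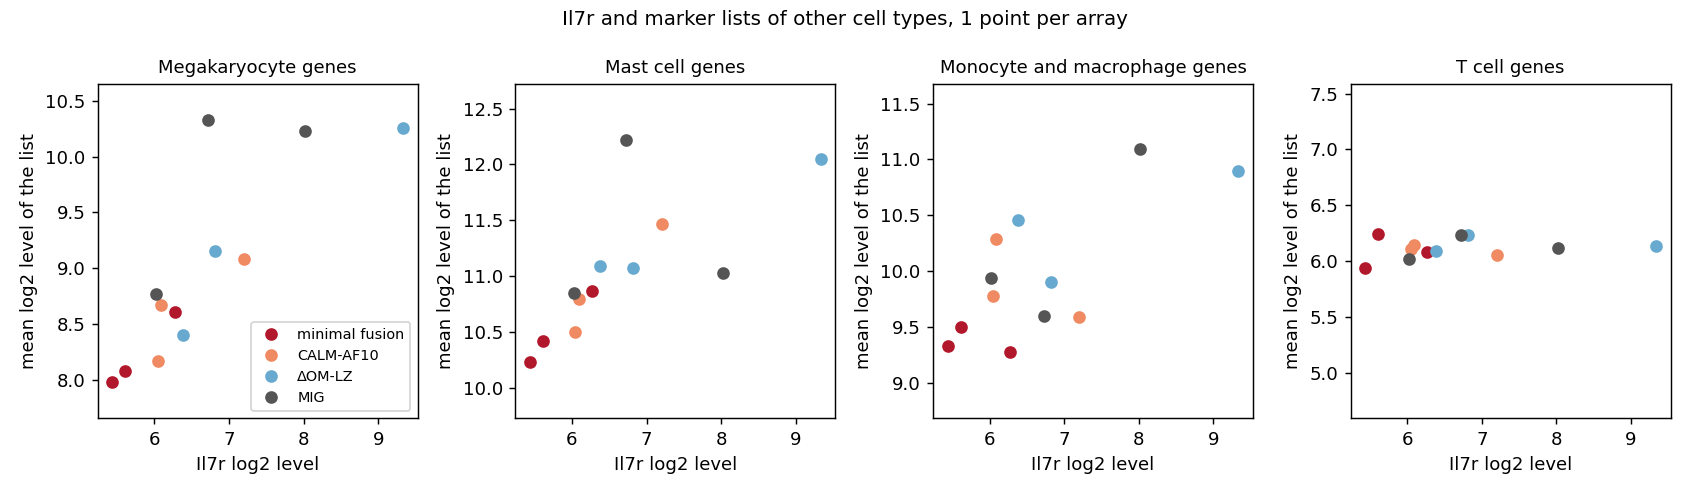
Mean log2 level of 4 marker lists (y axes, all of the same span) against the log2 level of Il7r (x axis), 1 point per array coloured by construct. Megakaryocyte and mast cell lists are higher where Il7r is higher (r = 0.82 and 0.72), while the T cell list stays between 5.94 and 6.24. Of the 10 measured T cell genes 1 passed the filter on dim probe sets.

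The genes most like each member over the 12 arrays were taken by rule, as the 3 with the highest Pearson r. For Il7r they were Adam8, a metalloprotease of leukocytes (r = 0.97), Rnh1, the ribonuclease inhibitor (0.97), and Bcar3, an adaptor in adhesion signalling (0.96). For Cd79b they were Coq2, an enzyme of coenzyme Q synthesis (0.92), Dab2ip, a Ras GTPase activator (0.90), and Nop14, a ribosome assembly factor (0.89). For Rag1 they included the olfactory receptor gene Olfr149 (0.95) and the vomeronasal receptor gene Vmn2r27 (0.92), and for Pax5 the serotonin receptor gene Htr3a (0.92). For Dntt they were Gjc3 (0.95), Cntfr, a neurotrophic factor receptor (0.94), and Mrgprh (0.94).

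Igll1 was most like Gdap1l1 (0.97), Tor1a (0.96) and Slc16a6 (0.96), Ebf1 like Krt222 (0.94), Efcc1 and Tmem163 (0.92 each), Rag2 like Tmtc1 (0.91), Mir130b and Teddm1a (0.90 each), and Cd79a like Eps15l1 (0.80), Fryl (0.80) and Rarres1 (0.79). The remaining partners were Thsd7a for Rag1 (0.94), and Chrdl2 (0.92) and Trim66 (0.91) for Pax5. No member was among the 3 most like another. The share of genes with r above 0.8 was 4.57% for Igll1, 1.64% for Il7r, 1.44% for Dntt, 1.33% for Rag1, 0.19% to 0.37% for Cd79b, Rag2, Ebf1 and Pax5, and 0 for Cd79a.

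Of 14 measured genes of the pre-B receptor, B receptor signalling and B surface (16 listed) 0 passed in any of the 6 comparisons, with medians from −0.15 to 0.07. In the minimal fusion against MIG the lowest statistics were those of Bst1, a surface ectoenzyme also found on myeloid cells (log2 fold change −2.04, SE 0.68, adjusted p = 0.533 in limma), and Blnk, the adaptor below the pre-B receptor (−0.19, adjusted p = 0.651), and the highest those of Cd22, a B cell inhibitory receptor (0.13), and Cd24a (0.12). The surrogate light chain genes Vpreb1 and Vpreb2, partners of Igll1, are near-identical copies whose probes may not part them, so the values of both are uncertain. In the minimal fusion against MIG their probe sets stood at −0.06 and 0.11. Vpreb1 ran from 5.65 to 6.03, 5.82 to 6.01, 5.81 to 6.36 and 5.79 to 5.95 in minimal fusion, CALM-AF10, ΔOM-LZ and MIG arrays, so all groups overlapped.

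Of 19 other transcription factors of B commitment 0 passed in any comparison, with medians from −0.11 to 0.08. In the minimal fusion against MIG, Tcf3, which encodes the E2A proteins that act with Ebf1, stood 0.39 higher (1.31-fold, SE 0.13, adjusted p = 0.538 in limma), with minimal fusion arrays at 9.53, 9.64 and 9.74 and MIG arrays at 9.51, 9.03 and 9.23. Every minimal fusion array lay above every MIG array, with the closest at 9.53 and 9.51. Groups did not overlap for 12.1% of all probe sets in this comparison, and Mef2c of this list also lay higher without overlap. Id2, which blocks E2A proteins, stood 1.57 lower (log2 fold change −1.57, SE 0.55, adjusted p = 0.555), at 10.22, 9.58 and 9.68 in minimal fusion arrays and 10.59, 11.23 and 12.38 in MIG arrays, again without overlap. Irf4, a factor of later B stages, stood at −0.95 (adjusted p = 0.713) and Pou2af1, an octamer coactivator, at 0.25 (adjusted p = 0.708).

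Interleukin-7 signalling genes gave 0 passes of 8 measured (10 listed), with medians from −0.28 in the minimal fusion against MIG to 0.04 in CALM-AF10 against ΔOM-LZ. Crlf2, the TSLP receptor chain that pairs with Il7r, stood at 0.28 in the minimal fusion against MIG (adjusted p = 0.681), and Cish, a target of STAT5, at −0.48 (adjusted p = 0.752). Stat5a stood at 0.08 and the survival gene Mcl1 at −0.29. Il2rg and Jak3 were the listed genes not measured. Which cytokine of the culture the measured genes answered was not tested.

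Repair partners of the recombinase gave 0 passes of 11 measured (12 listed), with medians from −0.18 to 0.12. In the minimal fusion against MIG, Hmgb1, a DNA-bending protein that aids RAG, stood at 0.53 (1.45-fold, SE 0.26, adjusted p = 0.688), Poll at 0.30, the end-joining ligase gene Lig4 at −0.37 (adjusted p = 0.585) and its partner Xrcc4 at −0.31 (adjusted p = 0.617). These genes serve DNA repair in all cells.

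Of the marker lists of other cell types, 1 gene passed anywhere: Cd27, a receptor of lymphoid-primed and other multipotent progenitors, in the minimal fusion against MIG (log2 fold change 1.93, SE 0.23, adjusted p = 0.0359 in limma). It was the sole call among 7 measured lymphoid-primed progenitor genes, whose median was 0.01, and it depended on the fit. The adjusted p in limma was 0.353 with the minimal fusion and MIG arrays alone, 0.872 with a replicate block on them and 0.0874 with the block on all 12 arrays. Replicate numbers did not pair the minimal fusion with MIG. Deviations of their same-number arrays correlated at r = −0.60, −0.35 and −0.21, so the blocked fits take up no shared deviation there. With 1 array left out the call held in 3 of 12 fits, those without replicate 2 of CALM-AF10, replicate 2 of ΔOM-LZ or replicate 1 of MIG, and the difference ran from 1.73 to 2.15. The other 6 genes of that list did not pass and went both ways: Flt3, a cytokine receptor of early progenitors, stood at 1.40, Mef2c at 0.18, Ccr9 at 0.01, Notch1 at −0.32, Lsp1 at −0.36 and Satb1 at −0.92.

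The replicate numbers paired the arrays in 1 comparison, taken as all 3 numbers deviating together. Number 1 arrays of the minimal fusion also deviated with those of CALM-AF10 (r = 0.72) and ΔOM-LZ (r = 0.62). Number 2 arrays of the minimal fusion gave 0.39 with CALM-AF10 and 0.07 with ΔOM-LZ. Number 3 arrays did not deviate together (−0.20 and −0.07). Between the fusions and MIG the values ran from −0.60 to 0.15. Between CALM-AF10 and ΔOM-LZ, arrays of the same number deviated together (r = 0.70 to 0.73 over all probe sets), and within numbers Cd79b was higher in CALM-AF10 by 0.49, 0.54 and 0.38, so in 3 of 3 pairs. A paired limma fit of these 6 arrays, with 2 residual degrees of freedom, gave an adjusted p of 0.229 for Cd79b and called 1 probe set of all, against 0 without the block. The same differences were −2.13, −0.77 and −0.29 for Il7r (adjusted p = 0.293) and −0.32, −0.25 and −0.03 for Rag1 (adjusted p = 0.373). No member passed under the pairing.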

How the data were processed

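Each probe set has 1 log2 intensity per array as deposited. Per the submitters' processing notes, the authors used Affymetrix Expression Console; its version and how it summarized and normalized probes were not stated. That the scale is log2 was taken from the range of the deposited values (2.883 to 14.272, array medians 6.581 to 6.686). Nothing was renormalized. The file held 35556 probe sets; 23410 carried a gene symbol in GEO's platform annotation and were tested (21789 with 1 symbol).

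Differences were tested with limma 3.58.1 (R 4.3.3; lmFit, eBayes) in 1 model of 4 construct means over 12 arrays (8 residual degrees of freedom), two-sided, with Benjamini-Hochberg adjustment over 23410 probe sets and a threshold of 0.05. The code was tested on simulated data. Named genes were the 9 members, the 3 most correlated genes of each, and from each of the 4 B lineage lists any gene past the threshold and otherwise those with the 2 highest and 2 lowest moderated statistics of the minimal fusion against MIG. Vpreb1, Vpreb2 and the 7 lymphoid-primed progenitor genes fall outside this rule and were named after their values were seen. Members and lists were chosen with earlier results of these data known. Lists covered pre-B and B receptor genes, B factors, interleukin-7 signalling, V(D)J repair, and markers of mature B, T, NK, lymphoid-primed, plasmacytoid dendritic, neutrophil, monocyte, mast, megakaryocyte, erythroid, fibroblast and all blood cells.

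Replicate numbers were checked as pairs by correlating deviations from construct means: CALM-AF10 with ΔOM-LZ was the 1 comparison that passed 0.1 in all 3 pairs (0.70 to 0.73), which comes from the data and not the labels. What a biological replicate shares is not stated, so p-values measure the spread between these arrays. Precision is limited by 3 arrays per construct. Alternatives were variance trend, median centring, quantile normalization, groups alone, replicate block, dim filter, 1-symbol probe sets, probe set means and leaving out each array.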

Additional observations from a re-analysis of the deposited data

How the results depend on the processing

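No member passed the adjusted threshold under any alternative run: of 1086 member differences recomputed, 0 passed and the smallest adjusted p was 0.229. Direction turned in 66, of which 59 came from leaving out 1 array; the cause was not tested. Quantile normalization turned Pax5 (−0.011) and Cd79a (−0.002) in the minimal fusion against MIG, Cd79a (0.001) and Rag2 (−0.009) in CALM-AF10 against MIG, and Cd79a (−0.003) and Cd79b (0.019) in the minimal fusion against CALM-AF10, and median centring turned Rag2 in CALM-AF10 against MIG (−0.009). The count over all probe sets for the minimal fusion against MIG, 8, was 0 with those groups alone, 0 with a replicate block on them, 1 with a replicate block on all 12 arrays and 1 to 9 without 1 array. For the minimal fusion against ΔOM-LZ the count of 4 was 8 with trend and robust variance, 2 with median centring, 0 with the groups alone, 52 with the replicate block and 1 to 5 without 1 array. For CALM-AF10 against ΔOM-LZ the count of 0 was 1 with the replicate block, the only comparison whose numbers paired. For the minimal fusion against CALM-AF10 the count of 1 was 0 with the groups alone, 0 with the block on all arrays and 0 to 1 without 1 array. Without 1 array it was 0 to 1 for CALM-AF10 against MIG and 0 to 4 for ΔOM-LZ against MIG. The dim filter left only Cd79b, so no median was computed there. The replicate block changed no call of a member. The Cd27 call, recomputed as a choice made after seeing the data, held in 6 of 9 alternatives other than leaving out 1 array (adjusted p from 0.0193 to 0.872 over all alternatives).

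Log2 differences whose sign turned without 1 array had these ranges. In the minimal fusion against MIG they were Pax5 from −0.058 to 0.089, Igll1 from −0.030 to 0.26, Cd79a from −0.12 to 0.13, Cd79b from −0.006 to 0.24, Rag1 from −0.19 to 0.061 and Dntt from −0.028 to 0.15. In CALM-AF10 against MIG they were Igll1 from −0.095 to 0.32, Cd79a from −0.13 to 0.11, Rag1 from −0.21 to 0.040, Rag2 from −0.010 to 0.025, Dntt from −0.13 to 0.051 and Il7r from −0.93 to 0.072. In ΔOM-LZ against MIG they were Ebf1 from −0.076 to 0.041, Igll1 from −0.048 to 0.29, Cd79a from −0.073 to 0.17, Rag1 from −0.010 to 0.24, Dntt from −0.093 to 0.086 and Il7r from −0.32 to 1.15. In the minimal fusion against ΔOM-LZ they were Ebf1 from −0.071 to 0.046, Igll1 from −0.14 to 0.19, Cd79a from −0.14 to 0.076 and Rag2 from −0.012 to 0.083. In CALM-AF10 against ΔOM-LZ they were Pax5 from −0.018 to 0.068, Igll1 from −0.22 to 0.21, Cd79a from −0.14 to 0.025 and Dntt from −0.087 to 0.025. In the minimal fusion against CALM-AF10 they were Igll1 from −0.17 to 0.24, Cd79a from −0.077 to 0.14, Cd79b from −0.18 to 0.066 and Rag1 from −0.068 to 0.15.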
